A study of Mus musculus with 18 samples.

Results

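The SLC25 family comprises the mitochondrial carriers, the transporters that move nucleotides, phosphate, carboxylates, amino acids, cofactors and metal ions across the inner mitochondrial membrane. Most carriers share 1 fold, built from repeated pairs of membrane helices, and exchange 1 substrate for another. Proximal tubule cells of the kidney are rich in mitochondria and depend on these exchanges to supply ATP for reabsorption. Members were taken as the genes with a symbol of the form Slc25a followed by a number and with at least 10 counts over the 18 libraries. The rule gave 44 of the 32285 genes in the table, out of 47 with such a symbol. Slc25a31 was the member just inside the minimum, with 10 counts, and Slc25a2 lay just outside it with 8 counts. Slc25a54 had 2 counts and Slc25a41 had 0 counts.

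RNA was sequenced from tissue microdissected out of frozen kidney sections, in 3 region types: cystic regions with high F4/80 signal, cystic regions with low F4/80 signal and non-cystic regions. F4/80, the product of Adgre1, is carried on the surface of macrophages. Each region type had 6 libraries, made of 2 from each of the same 3 kidneys, and the 2 were summed so that the kidney is the unit of replication. All kidneys came from male C57BL/6 mice of the iKspCre-Pkd1del line with the genotype Pkd1 KO. In that line a kidney-specific Cre, activated by tamoxifen, removes exons 2 to 11 of Pkd1, the gene for polycystin-1. Tamoxifen was given orally at 12.5 mg/kg on postnatal days 18 and 19, and the mice were killed in the mild cystic phase as judged by MRI. Kidneys 1 and 3 carry the age 269 and kidney 2 carries 297, with no unit. The non-cystic regions belong to the same deleted kidneys, so the comparisons are between regions of mutant kidneys and not between mutant and normal mice. The labels do not say whether the kidneys came from separate mice.

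Library totals were 5841975 to 8662288 counts in F4/80-high, 7186518 to 9188813 in F4/80-low and 5366651 to 9002054 in non-cystic regions. Adgre1, used to choose the regions and therefore only a check, averaged 53.9 CPM in the F4/80-high kidneys, against 6.55 CPM with low F4/80 signal and 2.56 CPM outside cysts, where CPM are counts scaled to the size of the library. Summed markers of proximal tubule (8 genes) were at 157 to 1174 CPM in F4/80-high, 4505 to 5897 CPM in F4/80-low and 6267 to 9233 CPM in non-cystic regions. Macrophage markers (7 genes) summed to 1897 to 5021, 338 to 423 and 86.1 to 112 CPM in the same order of regions. Fibroblast markers (6 genes) summed to 750 to 1529, 304 to 383 and 63.7 to 86.8 CPM, also in that order. None of these 21 markers was at 0 in a region type. Not every cell type followed such an order. Thick ascending limb markers (3 genes) summed to 238 to 809, 1477 to 3626 and 1048 to 1654 CPM in the same order of regions. Podocyte markers (4 genes) varied widely between kidneys, at 88.8 to 290, 16.8 to 270 and 45.9 to 105 CPM. The part that cell make-up has in the differences below was not tested, and in this bulk tissue fewer cells of a type and less RNA per cell cannot be told apart.

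Most carriers were lower where F4/80 was high, and a few were higher. Members took 0.339% ± 0.068 of all counts in F4/80-high regions, 0.478% ± 0.0287 in F4/80-low regions and 0.574% ± 0.0099 in non-cystic regions (SD, n = 3 kidneys). Slc25a5 alone held 33.4% ± 9.53, 41.1% ± 1.44 and 48.2% ± 0.645 of these member counts in the same order. The family's share thus rests in large part on this gene. Of the 43 members tested, 27 were lower and 3 were higher in F4/80-high than in non-cystic regions, and 13 were not called (edgeR's quasi-likelihood test, Benjamini-Hochberg adjusted p below 0.05 over 16034 genes). Among all genes tested, 39.2% were called in this comparison, 19.5% lower and 19.7% higher, against 62.8% of the members lower and 6.98% higher. The median log2 fold change was -1.03 over the members and 0.04 over all genes. Of the 27 members called lower, 20 were more than 2-fold lower. Each of the 27 was lower in 3 of 3 kidneys, 26 of them without overlap between the groups. A call itself makes such separation likely, and its share over all genes is not given here, so these counts add no support. The 9 sums leave 4 residual degrees of freedom, and the test also borrows from the spread of other genes. Without kidney 1 the count of called members was 18, and with libraries scaled to total counts in place of the trimmed mean of M values (TMM) it was 20, of which 15 were lower and 5 higher. Total counts move the median of all genes up by 0.61 on the log2 scale, and the fold changes given here are relative to the TMM scale. Shares of all genes called are given for the fit with TMM and all kidneys alone, here and below. Member counts under an alternative therefore have no matching background share. The range of all genes called with a kidney or library left out is given at the end. Calls lost without kidney 1 included Slc25a1, Slc25a5, Slc25a26, Slc25a35, Slc25a38, Slc25a39, Slc25a42, Slc25a43, Slc25a44, Slc25a46 and Slc25a53. Calls lost with total counts included Slc25a1, Slc25a12, Slc25a26, Slc25a28, Slc25a35, Slc25a37, Slc25a38, Slc25a44, Slc25a45, Slc25a46 and Slc25a51. Without kidney 2, Slc25a37, Slc25a38, Slc25a43, Slc25a46 and Slc25a53 were not called, and without kidney 3 Slc25a43 was not.

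**Figure D1:**
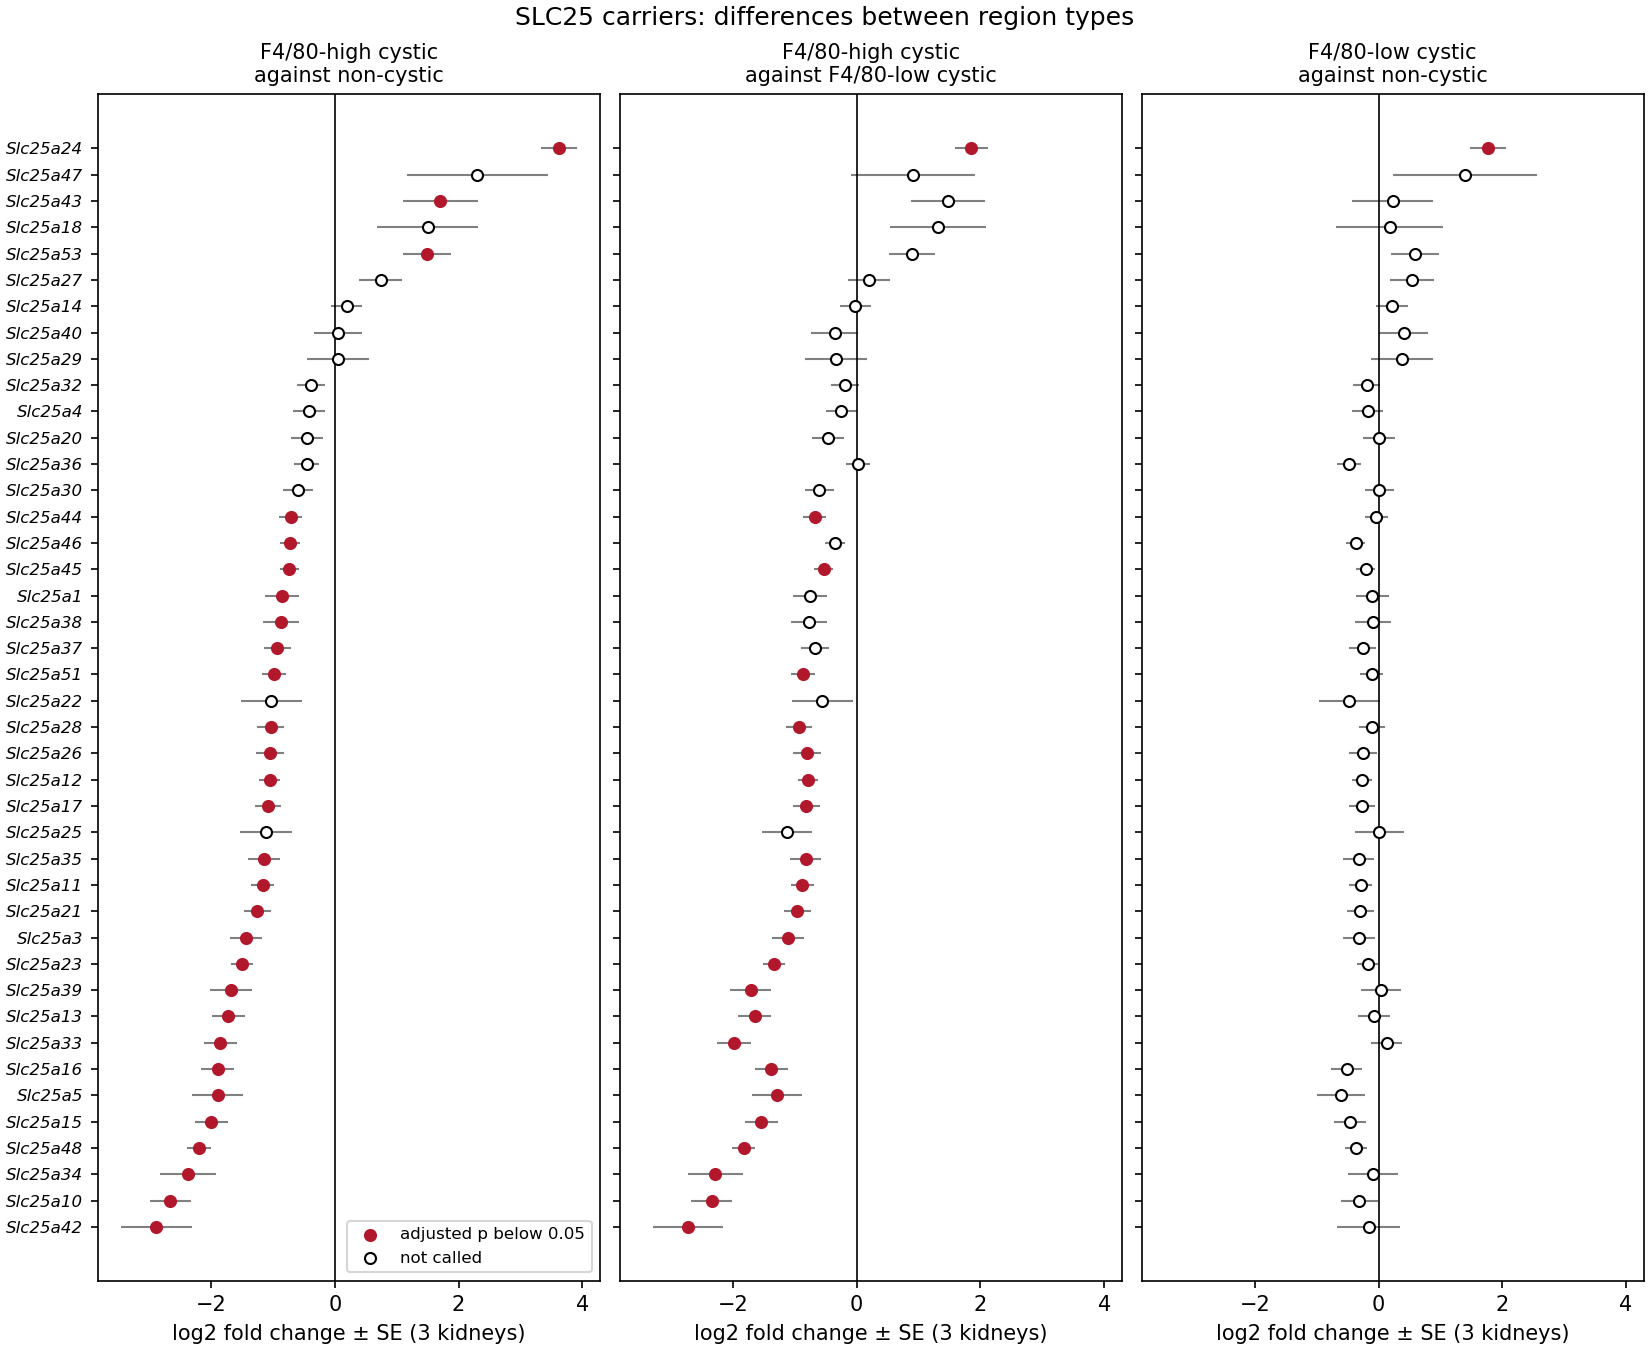
Log2 fold change (x axis, with its SE as bars, 3 kidneys) of 42 tested carriers, ordered by the first panel; the panels are F4/80-high against non-cystic, F4/80-high against F4/80-low, and F4/80-low against non-cystic, and filled points passed an adjusted p of 0.05. In the first panel 26 of the carriers drawn were called to the left of 0 and 3 to the right, in the second 22 and 1, and in the third 0 and 1.

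The ADP/ATP carriers hand newly made ATP to the cytosol in exchange for ADP. Slc25a5, which encodes adenine nucleotide translocase 2, is at chrX:36795651-36798807 on the plus strand (GRCm38). It measured 1189.9, 1229 and 408 CPM in kidneys 1, 2 and 3 of the F4/80-high regions, 2012, 2217 and 2186 CPM in F4/80-low regions and 3501, 3218 and 3146 CPM in non-cystic regions. These sums did not overlap between the 3 region types, and kidney 3 was the lowest of the F4/80-high kidneys. Single libraries did overlap. Replicates 1 and 2 of F4/80-high kidney 1 stood far apart, at 1726 and 647 CPM, and replicate 1 lay above replicate 2 of F4/80-low kidney 2 (1644 CPM). Slc25a5 fell by 1.89 ± 0.41 on the log2 scale (SE, 3 kidneys) in F4/80-high against non-cystic regions (adjusted p = 0.0053, edgeR's quasi-likelihood test), but without kidney 1 the change of -2.11 had an adjusted p of 0.050. Against F4/80-low regions it fell by 1.28 ± 0.40 (adjusted p = 0.044), a call lost in 12 of 30 alternatives, each kidney left out in turn among them. Its change in F4/80-low against non-cystic regions was -0.61 ± 0.39 (adjusted p = 0.65, edgeR's quasi-likelihood test). Within kidneys 1, 2 and 3 this change was -0.80, -0.54 and -0.52, and the SE rests on a spread shared by the 3 region types. As much as 33.8% of the 50-base words of Slc25a5 also occur in 9 other annotated genes, so its count is uncertain.

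Slc25a4, the ADP/ATP carrier of heart and muscle known as adenine nucleotide translocase 1, was not called. It measured 480, 641 and 482 CPM in F4/80-high, 679, 615 and 607 CPM in F4/80-low and 796, 611 and 741 CPM in non-cystic regions. The groups overlapped, and its change in F4/80-high against non-cystic regions was -0.42 ± 0.26 (adjusted p = 0.22), which is 0.19 with total counts. Counted per kilobase of exon, Slc25a5 made up 68.7% ± 12.3 of the ADP/ATP carriers in F4/80-high, 82.8% ± 1.64 in F4/80-low and 86.8% ± 1.30 in non-cystic regions (SD, n = 3; no test was made of these shares). Its share was 54.8% in kidney 3 of the F4/80-high regions, below the 78.0% and 73.3% of the other kidneys. Slc25a31, another ADP/ATP carrier of the testis, had its 10 counts in F4/80-high regions, at 0.316, 0 and 0.221 CPM, and was too low to test.

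Slc25a3, the phosphate carrier that feeds ATP synthase and also moves copper, was lower in F4/80-high regions. It measured 366, 410 and 233 CPM in F4/80-high, 696, 752 and 686 CPM in F4/80-low and 958, 921 and 794 CPM in non-cystic regions, with no overlap between the groups. The change was -1.43 ± 0.26 against non-cystic regions (adjusted p = 0.0023) and -1.11 ± 0.26 against F4/80-low regions (adjusted p = 0.013, edgeR's quasi-likelihood test). The call against F4/80-low regions was lost without kidney 1, without kidney 2 and with those region types fitted alone.

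The ATP-Mg/phosphate carriers exchange ATP-Mg for phosphate under control of calcium and so set the adenine nucleotide content of the matrix. Of their 3 tested members, 1 was higher, 1 was lower and 1 was not called in F4/80-high against non-cystic regions. Slc25a24, at chr3:109123149-109168457 on the plus strand (GRCm38), measured 26.5, 20.9 and 38.9 CPM in F4/80-high, 8.97, 8.08 and 6.54 CPM in F4/80-low and 2.47, 2.41 and 2.02 CPM in non-cystic regions. The 3 region types did not overlap and stood in the same order in every kidney. Slc25a24 rose by 3.62 ± 0.30 on the log2 scale, or 12.3-fold, in F4/80-high against non-cystic regions (adjusted p = 4.7e-05), and by 1.85 ± 0.27 against F4/80-low regions (adjusted p = 0.0022, edgeR's quasi-likelihood test). Across 30 alternative analyses its change in F4/80-high against non-cystic regions lay between 3.26 and 4.25, with an adjusted p of at most 0.0053. None of its 50-base words occurs in another annotated gene, and no exon of another gene overlaps it.

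Slc25a23 was lower. It measured 7.26, 9.06 and 6.24 CPM in F4/80-high, 19.2, 20.1 and 17.0 CPM in F4/80-low and 20.5, 24.4 and 18.8 CPM in non-cystic regions. The F4/80-high values lay below all others, and the change was -1.50 ± 0.18 against non-cystic regions (adjusted p = 0.00029, edgeR's quasi-likelihood test). Slc25a25 measured 4.05, 7.92 and 11.6 CPM in F4/80-high, 14.8, 21.5 and 14.5 CPM in F4/80-low and 13.2, 31.2 and 9.40 CPM in non-cystic regions. Its F4/80-high and non-cystic values overlapped, with a change of -1.11 ± 0.42 that was not called (adjusted p = 0.064). Per kilobase, Slc25a24 made up 76.9% ± 6.66 of this subgroup in F4/80-high, 28.7% ± 3.08 in F4/80-low and 10.0% ± 2.14 in non-cystic regions (SD, n = 3), and Slc25a23 made up 14.0% ± 5.49, 44.5% ± 1.71 and 59.4% ± 8.68 in the same order. Macrophage and fibroblast marker sums were highest where Slc25a24 was highest, and their part in its level was not tested.

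**Figure D2:**
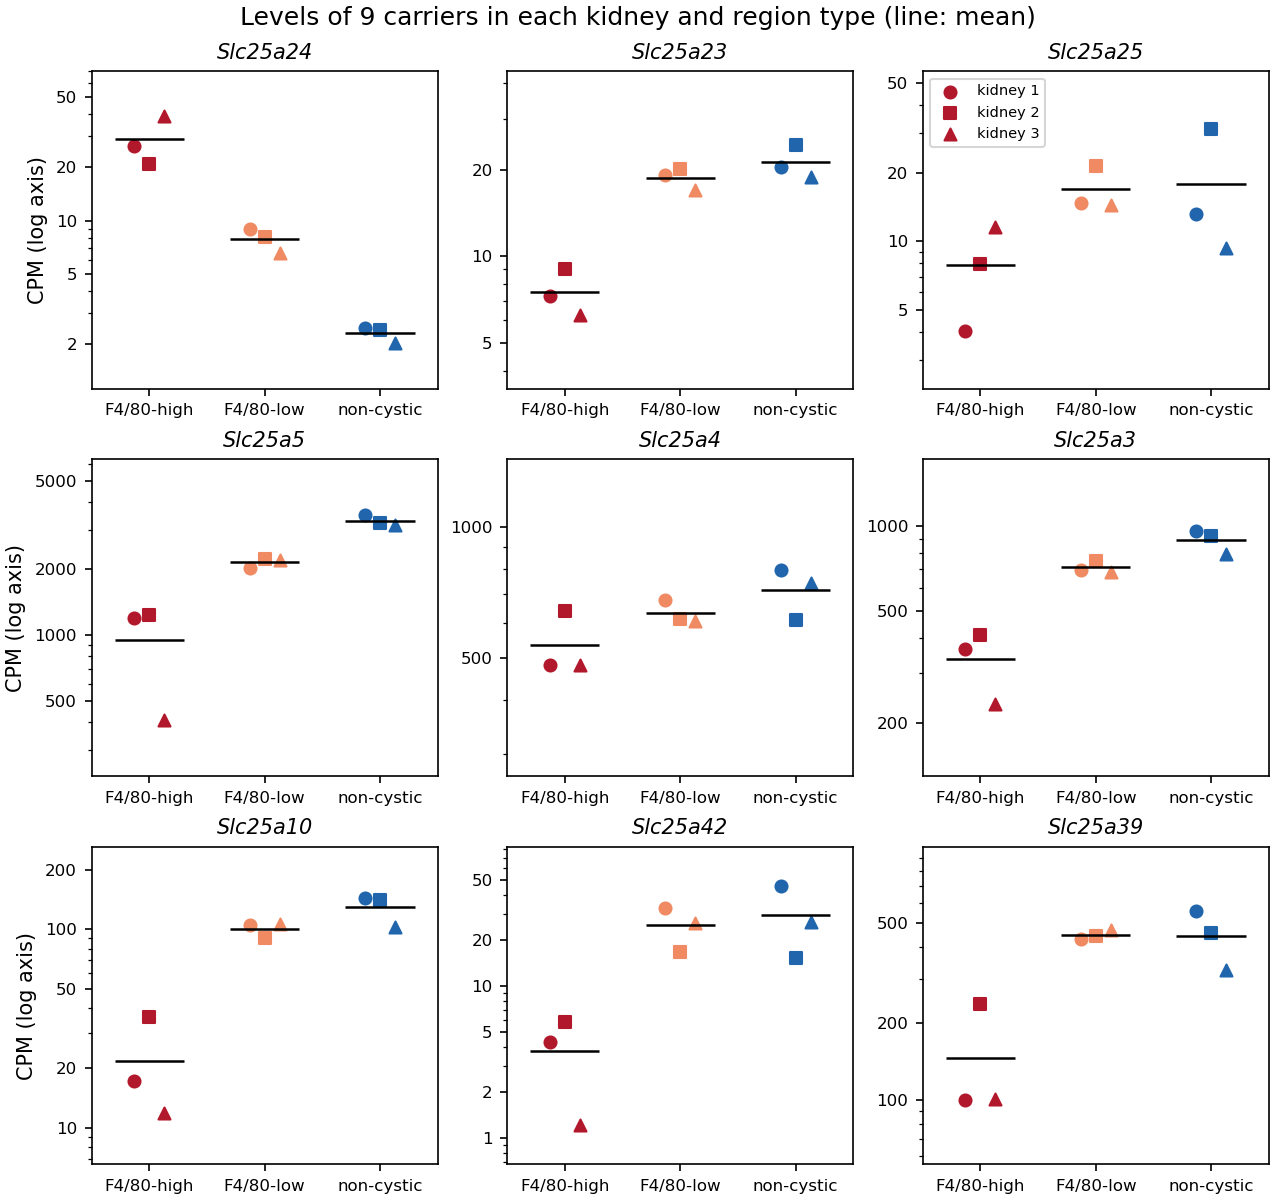
CPM (log axis) of 9 carriers in each of 3 kidneys (symbols) for F4/80-high, F4/80-low and non-cystic regions, with the group mean as a line. Slc25a24 stands at 20.9 to 38.9 CPM in F4/80-high regions and 2.02 to 2.47 CPM in non-cystic regions, while the other panels show the groups level or lower in F4/80-high regions.

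**Figure D3:**
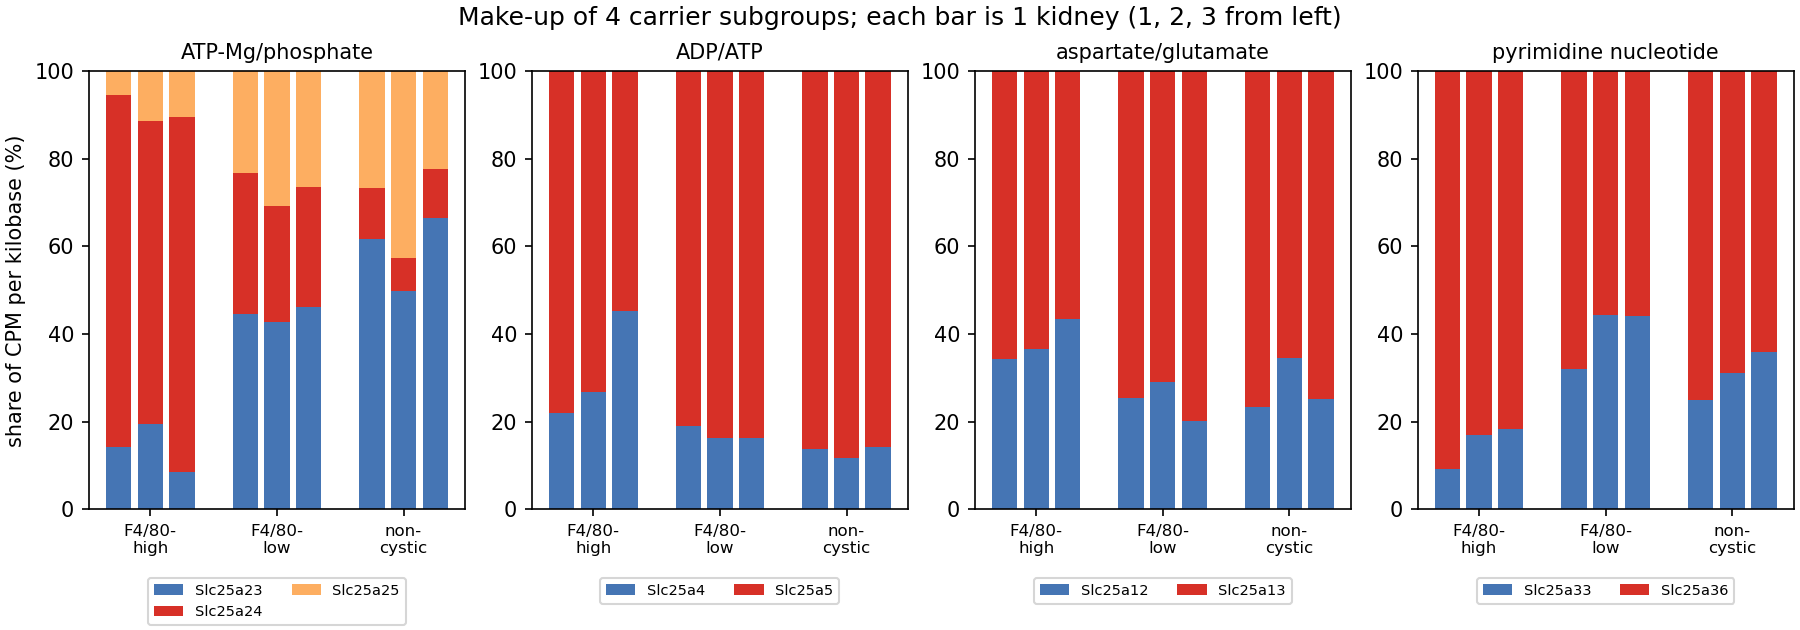
Share (%) of each paralogue in the CPM per kilobase of 4 carrier subgroups, 1 bar for each kidney, from F4/80-high through F4/80-low to non-cystic regions. Slc25a24 takes 69.2 to 81.0% of the ATP-Mg/phosphate carriers in F4/80-high kidneys and 7.58 to 11.5% in non-cystic kidneys.

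The 250 bases before RefSeq's start site are shown for the carrier that rose most and for the ADP/ATP pair, of which 1 was lower and 1 was not called. The sequences are from RefSeq (GRCm38.p6), 5′ to 3′ along the gene's strand, at chr3:109122899-109123148 (plus) for Slc25a24, chrX:36795347-36795596 (plus) for Slc25a5 and chr8:46211063-46211312 (minus) for Slc25a4. In the GENCODE annotation Slc25a4 begins further upstream, at 46211284, so most of its window lies within the annotated gene.
Slc25a24: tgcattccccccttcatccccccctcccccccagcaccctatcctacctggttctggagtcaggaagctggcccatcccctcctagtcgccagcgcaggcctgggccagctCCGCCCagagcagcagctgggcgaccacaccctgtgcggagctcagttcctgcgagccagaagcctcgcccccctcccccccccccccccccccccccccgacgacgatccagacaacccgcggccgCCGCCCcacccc
Slc25a5: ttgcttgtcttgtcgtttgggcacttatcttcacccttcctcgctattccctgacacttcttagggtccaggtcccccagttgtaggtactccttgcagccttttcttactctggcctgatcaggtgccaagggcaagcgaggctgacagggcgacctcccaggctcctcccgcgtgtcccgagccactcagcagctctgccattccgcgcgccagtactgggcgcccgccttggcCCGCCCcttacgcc
Slc25a4: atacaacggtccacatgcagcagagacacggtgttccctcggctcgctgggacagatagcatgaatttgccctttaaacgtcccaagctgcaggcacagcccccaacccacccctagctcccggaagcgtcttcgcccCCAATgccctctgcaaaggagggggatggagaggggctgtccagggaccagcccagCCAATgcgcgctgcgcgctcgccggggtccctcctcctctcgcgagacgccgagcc
Capitals mark GGGCGG or CCAAT on either strand. Slc25a24 holds 2 matches to GGGCGG, Slc25a5 holds 1 and Slc25a4 holds 2 to CCAAT. Of 35 members with a promoter in the table, 71.4% held GGGCGG and 51.4% held CCAAT in at least 1 start site's window, against 35.4% and 37.5% of all 27025 genes. Those 27025 were not limited to genes expressed here, and a gene with more start sites had more chances of a match. In all, 11 motifs were searched on both strands, and those marked here, with TNAAGGTCA, were picked after the matches of all 11 had been seen. TNAAGGTCA was in 0 of 35 member genes and in 1.30% of all genes. Of the other 8, those with a match gave, in member genes and in all genes, 2.86% and 4.70% for AAGGTCA, which lies within TNAAGGTCA, 5.71% and 5.64% for the NRF1 motif, 5.71% and 7.82% for TGANTCA, 14.3% and 7.83% for CCGGAAG, and 48.6% and 38.7% for TGANNNNGC. CAAAGTCCA, the YY1 motif and the direct repeat of AGGTCA with a 1-base spacer were in 0 of 35 member genes and in 0.451%, 0.248% and 0.0407% of all genes. A match describes letters in this window and is not a binding site.

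The di- and tricarboxylate carriers link the citric acid cycle to the cytosol, and all 4 were lower in F4/80-high than in non-cystic regions. Slc25a10, the dicarboxylate carrier that exchanges malate or succinate for phosphate, measured 17.3, 36.0 and 11.8 CPM in F4/80-high, 106, 90.4 and 107 CPM in F4/80-low and 145, 141 and 103 CPM in non-cystic regions. The F4/80-high values lay below all others, a change of -2.66 ± 0.32 against non-cystic and -2.34 ± 0.32 against F4/80-low regions (adjusted p = 0.00046 and 0.0023, edgeR's quasi-likelihood test). Slc25a11, which exchanges oxoglutarate for malate in the malate-aspartate shuttle, measured 97.0, 94.6 and 66.3 CPM in F4/80-high, 164, 157 and 149 CPM in F4/80-low and 212, 174 and 188 CPM in non-cystic regions, in that order without overlap. Its change against non-cystic regions was -1.17 ± 0.19 (adjusted p = 0.0014). Slc25a21, the oxodicarboxylate carrier, changed by -1.25 ± 0.22, and no F4/80-high kidney reached a non-cystic one. Slc25a1, the citrate carrier that supplies cytosolic acetyl-CoA for fat synthesis, measured 25.1, 48.5 and 34.4 CPM in F4/80-high against 83.5, 63.3 and 45.8 CPM in non-cystic regions. These values overlapped, and its change of -0.86 ± 0.27 (adjusted p = 0.033) lost its call in 5 of 30 alternatives, among them leaving out kidney 1, replicate 2 of non-cystic kidney 2 or replicate 2 of F4/80-high kidney 1.

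Carriers of amino acids were lower or not called. Slc25a13 (citrin), the liver and kidney form of the aspartate/glutamate carrier, measured 18.6, 18.7 and 9.56 CPM in F4/80-high, 47.0, 46.3 and 52.0 CPM in F4/80-low and 57.6, 38.6 and 57.0 CPM in non-cystic regions. Its change was -1.72 ± 0.27 against non-cystic regions (adjusted p = 0.0012, edgeR's quasi-likelihood test). Its paralogue Slc25a12 (aralar), the form of brain and muscle, measured 18.7, 20.9 and 14.2 CPM in F4/80-high, 31.0, 36.7 and 25.4 CPM in F4/80-low and 34.0, 39.4 and 36.9 CPM in non-cystic regions. The F4/80-high values lay below all others here too, with a change of -1.05 ± 0.16 against non-cystic and -0.79 ± 0.16 against F4/80-low regions. Both calls were lost with total counts, and the one against F4/80-low regions also without kidney 1 or kidney 2. Per kilobase, Slc25a12 made up 38.1% ± 4.78 of this pair in F4/80-high, 24.9% ± 4.47 in F4/80-low and 27.7% ± 6.02 in non-cystic regions (SD, n = 3, no test), and from raw counts it made up 54.2% in F4/80-high, 38.9% in F4/80-low and 42.3% in non-cystic regions. Slc25a15, the ornithine carrier of the urea cycle, measured 21.7, 28.7 and 13.3 CPM in F4/80-high, 57.4, 54.6 and 70.6 CPM in F4/80-low and 73.1, 84.0 and 94.7 CPM in non-cystic regions, with no overlap. It fell by 2.00 ± 0.27 on the log2 scale against non-cystic regions and by 1.54 ± 0.27 against F4/80-low regions (adjusted p = 0.00061 and 0.0046, edgeR's quasi-likelihood test), a call lost against F4/80-low regions without kidney 1. Slc25a38, which brings in glycine for haem synthesis, and Slc25a44, a carrier of branched-chain amino acids, changed by -0.86 ± 0.29 and -0.71 ± 0.19 against non-cystic regions, and Slc25a38 lost its call in 10 of 30 alternatives. The glutamate carriers were low and not called. Slc25a22 measured 0.947, 1.29 and 1.60 CPM in F4/80-high, 2.45, 1.31 and 1.88 CPM in F4/80-low and 2.47, 3.73 and 1.71 CPM in non-cystic regions, a change of -1.03 ± 0.49 against non-cystic regions. Slc25a18 measured 1.05, 0.347 and 0.884 CPM in F4/80-high, 0.272, 0.197 and 0.451 CPM in F4/80-low and 0.0884, 0.0732 and 0.777 CPM in non-cystic regions. The groups overlapped (adjusted p = 0.17, edgeR's quasi-likelihood test). Slc25a29, a basic amino acid carrier, averaged 1.56 CPM in non-cystic regions and was not called either, with a change of 0.05 ± 0.50.

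Slc25a20 exchanges carnitine for acylcarnitine and so admits fatty acids to oxidation. It measured 65.0, 49.8 and 32.8 CPM in F4/80-high, 61.6, 55.0 and 86.2 CPM in F4/80-low and 73.0, 56.0 and 73.1 CPM in non-cystic regions. The groups overlapped, and the change of -0.45 ± 0.26 was not called (adjusted p = 0.20, edgeR's quasi-likelihood test). Replicate 1 of F4/80-high kidney 1 stood apart at 89.4 CPM. The other F4/80-high libraries, at 30.3 to 50.9 CPM, lay below the non-cystic libraries, at 54.2 to 76.1 CPM.

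Carriers of cofactors and nucleotides were lower in 7 of 9 cases in F4/80-high against non-cystic regions. Slc25a42, a coenzyme A carrier, had the lowest fold change of the family. It measured 4.26, 5.84 and 1.22 CPM in F4/80-high, 32.5, 16.8 and 25.9 CPM in F4/80-low and 45.7, 15.2 and 26.6 CPM in non-cystic regions. The change was -2.89 ± 0.57 (adjusted p = 0.0073), with an adjusted p of 0.078 without kidney 1 and 0.059 with no filter on low counts. Slc25a16, which is also linked to coenzyme A, measured 7.00, 12.7 and 7.46 CPM in F4/80-high, 22.2, 20.9 and 27.3 CPM in F4/80-low and 29.1, 28.2 and 44.0 CPM in non-cystic regions. The groups did not overlap between F4/80-high and the rest, and the change against non-cystic regions was -1.89 ± 0.26 (adjusted p = 0.00067, edgeR's quasi-likelihood test). Among the others called lower, Slc25a17 of the peroxisome changed by -1.08 ± 0.21 and Slc25a26 (S-adenosylmethionine) by -1.04 ± 0.23. Slc25a51, the NAD carrier, measured 37.9, 40.7 and 28.9 CPM in F4/80-high, 64.2, 55.9 and 76.3 CPM in F4/80-low and 70.1, 68.6 and 73.5 CPM in non-cystic regions, a change of -0.98 ± 0.19 against non-cystic regions.

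The pyrimidine nucleotide carriers, which supply mitochondrial DNA and RNA synthesis, were lower in 1 case and not called in the other. Slc25a33 measured 1.58, 2.38 and 1.82 CPM in F4/80-high, 5.78, 8.21 and 9.02 CPM in F4/80-low and 5.21, 7.68 and 8.15 CPM in non-cystic regions, a change of -1.85 ± 0.27 against non-cystic regions (adjusted p = 0.00082, edgeR's quasi-likelihood test). An exon of Gm13068 overlaps it on the other strand, and the library kit does not mark the strand. Slc25a36 measured 79.2, 59.4 and 41.2 CPM in F4/80-high, 62.5, 52.2 and 58.4 CPM in F4/80-low and 80.2, 86.8 and 73.9 CPM in non-cystic regions. These groups overlapped, and its change against non-cystic regions of -0.46 ± 0.20 was not called (adjusted p = 0.098, edgeR's quasi-likelihood test). Replicate 1 of F4/80-high kidney 1 stood apart at 106 CPM. The other F4/80-high libraries, at 38.7 to 61.4 CPM, lay below the non-cystic libraries, at 65.0 to 86.8 CPM. Slc25a33 made up 14.8% ± 4.92 of the pair in F4/80-high, 40.1% ± 7.07 in F4/80-low and 30.6% ± 5.55 in non-cystic regions, per kilobase. From raw counts it made up 3.35% in F4/80-high, 11.8% in F4/80-low and 8.06% in non-cystic regions. Slc25a32, a carrier of folate and FAD, changed by -0.38 ± 0.22 and was not called.

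Iron and glutathione carriers were lower in 3 of 4 cases. Slc25a39, which imports glutathione, measured 99.9, 238 and 100 CPM in F4/80-high, 429, 444 and 469 CPM in F4/80-low and 554, 454 and 325 CPM in non-cystic regions. The F4/80-high values lay below all others, and the change was -1.67 ± 0.33 (adjusted p = 0.0037, edgeR's quasi-likelihood test), with a change of -1.28 and an adjusted p of 0.063 without kidney 1. Slc25a40, its paralogue, measured 3.26, 3.81 and 2.87 CPM in F4/80-high, 5.51, 3.42 and 4.06 CPM in F4/80-low and 2.65, 2.19 and 5.13 CPM in non-cystic regions, with overlap, and was not called. Per kilobase it stayed far below Slc25a39, which made up 99.2%, 99.7% and 99.7% of the pair in the same order. The mitoferrins import iron for haem and iron-sulfur clusters. Slc25a28 (mitoferrin-2) measured 6.57, 7.08 and 5.30 CPM in F4/80-high, 10.9, 12.3 and 12.9 CPM in F4/80-low and 11.3, 14.0 and 13.7 CPM in non-cystic regions, a change of -1.04 ± 0.22 against non-cystic regions. Slc25a37 (mitoferrin-1) measured 5.52, 5.59 and 7.01 CPM in F4/80-high, 10.1, 8.74 and 9.93 CPM in F4/80-low and 9.46, 11.5 and 13.7 CPM in non-cystic regions, a change of -0.93 ± 0.22. Slc25a28 made up 62.5% ± 6.68 of their sum per kilobase in F4/80-high, 66.8% ± 3.07 in F4/80-low and 64.6% ± 2.43 in non-cystic regions (SD, n = 3).

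The 3 carriers related to the uncoupling proteins were not called. Slc25a14, Slc25a27 and Slc25a30 changed by 0.19 ± 0.25, 0.74 ± 0.35 and -0.60 ± 0.24 in F4/80-high against non-cystic regions. Slc25a30 measured 61.6, 65.0 and 33.1 CPM in F4/80-high, 78.7, 86.7 and 73.9 CPM in F4/80-low and 66.6, 80.2 and 88.1 CPM in non-cystic regions, and its F4/80-high values lay below the others. With total counts Slc25a14 and Slc25a27 passed the test, at 0.79 and 1.33. Slc25a46, an outer membrane protein that shapes mitochondria, changed by -0.72 ± 0.16 and was called (adjusted p = 0.0055, edgeR's quasi-likelihood test). Slc25a48, a choline carrier, measured 11.5, 11.5 and 6.96 CPM in F4/80-high, 39.7, 31.1 and 33.9 CPM in F4/80-low and 54.9, 43.7 and 38.0 CPM in non-cystic regions, a change of -2.19 ± 0.19 (adjusted p = 6.2e-05).

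The other carriers, whose substrates are not stated here, went both ways. Slc25a34 measured 0.684, 2.03 and 0.773 CPM in F4/80-high, 6.05, 4.53 and 6.02 CPM in F4/80-low and 6.98, 5.12 and 5.67 CPM in non-cystic regions. The F4/80-high values lay below all others, a change of -2.38 ± 0.45 against non-cystic regions (adjusted p = 0.0028). Slc25a35 changed by -1.14 ± 0.25 and Slc25a45 by -0.74 ± 0.15. Of the 50-base words of Slc25a35, 25.0% occur in other annotated genes. Slc25a53 was higher in F4/80-high regions, at 4.05, 3.42 and 4.36 CPM against 2.21, 0.805 and 1.48 CPM in non-cystic regions, a change of 1.49 ± 0.39 (adjusted p = 0.013, edgeR's quasi-likelihood test). It lost its call without kidney 1 (a change of 1.81, adjusted p = 0.052), without kidney 2 (1.19, adjusted p = 0.13) and when the first library of kidney 3 with high F4/80 was left out (1.11, adjusted p = 0.097). Slc25a43 measured 1.21, 1.44 and 2.15 CPM in F4/80-high and 0.530, 0.512 and 0.388 CPM in non-cystic regions. Its change of 1.70 ± 0.61 (adjusted p = 0.049) lost its call in 19 of 30 alternatives, and in 3 others it was not among the genes tested. Slc25a47 was below 1 CPM on average in every region type and was not called.

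F4/80-high and F4/80-low regions were also compared. Of the 43 members, 23 were lower and 1 was higher in F4/80-high than in F4/80-low regions, where 24.3% of all genes were called, 14% lower and 10.3% higher. The median was -0.79 over the members and 0.04 over all genes. The number called was 6 without kidney 1, 14 without kidney 2, 17 with these 2 region types fitted alone and 14 with total counts (3 higher, 11 lower). All genes called also fell in number with these 2 region types alone. Their range with a kidney or library left out is given at the end. The largest falls were Slc25a42 at -2.72 ± 0.57, Slc25a10 at -2.34 ± 0.32 and Slc25a34 at -2.28 ± 0.45, of which Slc25a42 and Slc25a34 lost their calls without kidney 1. Slc25a37 missed the threshold with an adjusted p of 0.050 (edgeR's quasi-likelihood test).

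F4/80-low against non-cystic regions gave 1 called member of 43, and 1.53% of all genes were called, 1.51% higher and 0.0249% lower. Slc25a24 rose by 1.77 ± 0.29, or 3.41-fold (adjusted p = 0.018, edgeR's quasi-likelihood test), and it was higher in 3 of 3 kidneys without overlap. The call was lost without kidney 1 (1.71, adjusted p = 0.25), without kidney 2 (1.79, adjusted p = 0.062) and without replicate 2 of F4/80-low kidney 2 (1.61, adjusted p = 0.076). No member was called lower. Of the 42 not called, 2 had an unadjusted p below 0.05, Slc25a36 at -0.48 ± 0.20 and Slc25a46 at -0.37 ± 0.16, and DESeq2 also called 0 lower. The median was -0.16 over the members and 0.00 over all genes. This comparison shares its non-cystic samples with that of F4/80-high regions.

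Per kilobase of exon, Slc25a5 was the most abundant member in all 3 region types, at 572 ± 281 CPM per kilobase in F4/80-high, 1299 ± 67.2 in F4/80-low and 1998 ± 114 in non-cystic regions (SD, n = 3). Slc25a4 followed, at 227 ± 39.3, 269 ± 16.8 and 304 ± 40.4. Slc25a3 stood at 60.6 ± 16.6, 128 ± 6.44 and 161 ± 15.4, and Slc25a39 at 53.0 ± 28.8, 162 ± 7.23 and 161 ± 41.5. Slc25a3 and Slc25a39 lay within their spread of each other in F4/80-high and in non-cystic regions. Slc25a24 stood at 8.39 ± 2.69, 2.29 ± 0.358 and 0.671 ± 0.0721. The order of Slc25a4 and Slc25a3 depends on the division by length. In CPM, Slc25a3 averaged more than Slc25a4 in F4/80-low (712 against 634) and non-cystic regions (891 against 716). It averaged less in F4/80-high regions (336 against 535 CPM).

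Genes around the carriers were set beside them. All 60 nuclear-encoded oxidative phosphorylation genes tested were lower in F4/80-high than in non-cystic regions, with a median of -1.49, and 56 were lower with total counts. Within kidneys 1, 2 and 3 their median was -1.54, -1.04 and -1.92. Of the 27 carriers called lower, 7 lay below that median in every kidney (Slc25a42, Slc25a10, Slc25a34, Slc25a48, Slc25a15, Slc25a5 and Slc25a16) and 13 lay above it in every kidney, a comparison made without a test. The difference from that median was -1.19 ± 0.29 for Slc25a10 and 0.78 ± 0.42 for Slc25a46 on the log2 scale (SD, n = 3 kidneys). Some margins were close to 0 in a kidney, at -0.02 for Slc25a5 in kidney 1 and -0.08 for Slc25a16 in kidney 2. Among those above, Slc25a17 stood at 0.03 in kidney 2. All 13 mitochondrially encoded genes were lower as well, with a median of -2.99.

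Of 21 other mitochondrial transport genes, 12 were lower and 2 higher in F4/80-high against non-cystic regions. The 4 with the smallest p were all lower, and among them Mpc1, a subunit of the pyruvate carrier, fell by 2.00 on the log2 scale, the sideroflexins Sfxn2 by 1.60 and Sfxn5 by 1.72, and the ion exchanger Letm1 by 1.52. The 2 higher genes, named after their values were seen, were Mcub, the inhibitory subunit of the calcium uniporter, at 4.31 ± 0.72 and Sfxn3 at 1.11 (adjusted p = 0.0033 and 0.037, edgeR's quasi-likelihood test). Of 10 genes that import carriers into the membrane, 5 were lower and none was higher, led by Timm9 at -1.55 ± 0.21 (adjusted p = 0.00061). Of 3 tested relatives of the family under other symbols, Ucp2 was higher by 1.53 ± 0.21 (adjusted p = 0.00060), and Mtch2 fell by 0.81 ± 0.21 (adjusted p = 0.012). With total counts, 6 transport genes were higher and 7 lower, 2 import genes were higher and 1 lower, and among the relatives 2 were higher and none lower.

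**Figure D4:**
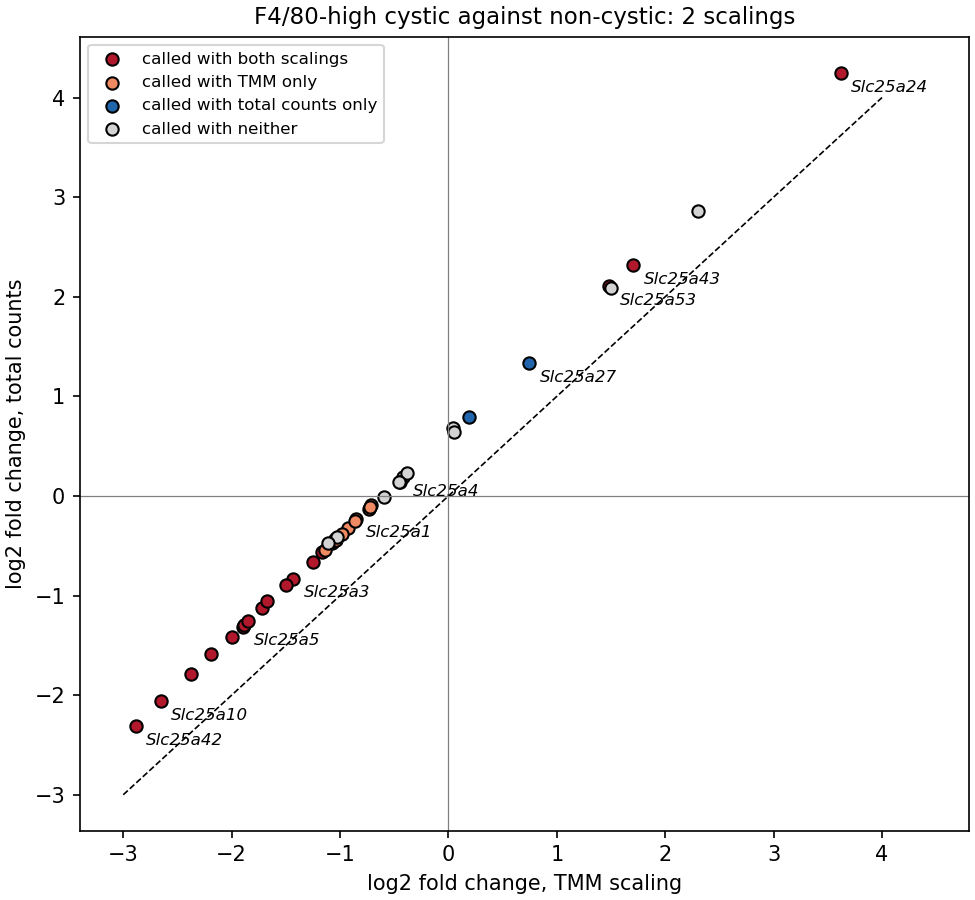
Log2 fold change of 42 tested carriers in F4/80-high against non-cystic regions with TMM scaling (x axis) and with total counts (y axis); the dashed line marks equal values and colours show with which scaling a carrier was called. The points lie above the line by about the 0.61 by which total counts move the median gene, and 20 of the carriers drawn were called with total counts against 29 with TMM.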

How the data were processed

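Per the labels' protocols, RNA was extracted with TRI reagent and libraries were made with the NEBNext Single Cell/Low Input kit, which does not mark the strand. The authors deposited whole-number read counts for each gene in each library, not normalized. The submitters' processing notes list HTSeq 0.11.0, fastp 0.20.1, FastQC 0.11.9 and the build mm10 (GRCm38) with no roles. Aligner, annotation release and strand setting: not given in the sources used here. Members and gene lists were chosen with earlier results of these data known.

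Both libraries from a kidney's region type were added up, leaving 9 sums. They were fitted in edgeR 4.0.16 (R 4.3.3) with TMM scaling, the filterByExpr minimum per region type, and a robust quasi-likelihood model holding region type and kidney, which serves as the block. The minimum left 16034 genes with 99.8% of the counts. A gene was called when its p, adjusted by Benjamini-Hochberg over those genes, was below 0.05. The SE is the size of the log2 fold change divided by the root of F. CPM used TMM-scaled totals, and levels per kilobase used the merged length of all exons of a gene in GENCODE's annotation of GRCm38. The p-values set a region difference against a spread between kidneys, with the kidneys' own levels taken out by the block. That spread is estimated over all 3 region types together and drawn toward that of other genes. Neither the p-value nor the SE therefore measures the spread of a single comparison. The labels give the same 3 kidneys for each region type, and the deviations of regions from the same kidney correlated at -0.18 to 0.33. Tested on simulated data for F4/80-high against non-cystic regions, the fit recovered 41% of 100 genes changed 2-fold and 95% of 100 genes changed 4-fold, with 9 false calls among 16034 genes. The changed genes all averaged more than 100 counts and were the only ones changed, and no kidney effect was simulated. The recovery rates therefore do not cover members with few counts, or data in which as many genes differ as here.

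Full values were planned for members of fixed subgroups, for Slc25a1, Slc25a3, Slc25a10, Slc25a11, Slc25a20, Slc25a30 and Slc25a51 and for the 8 largest called changes each way. From each other list, up to 4 genes with the smallest p are named. The 30 alternatives were DESeq2 1.42.0 size factors, total counts, no minimum, at least 50 counts in 3 sums, the DESeq2 Wald test, no kidney block, the 18 libraries apart with or without their replicate number, the compared region types alone, and each kidney and each library left out. The 50-base word check, the motifs marked, the carriers plotted and the minimum of 5 CPM for examining single libraries were chosen after the data were seen. Exons of 12 members overlap another gene on the other strand and those of 2 on the same strand, so their counts are uncertain. The 12 include Slc25a10, Slc25a11, Slc25a18, Slc25a21, Slc25a23, Slc25a25, Slc25a26, Slc25a33, Slc25a35, Slc25a37 and Slc25a46, and the 2 are Slc25a47 and Slc25a51. The 127 identifiers without a symbol held 0.00837% of the counts. Of the members tested, 1 is counted in the totals, and its own values are not reported here.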

Additional observations from a re-analysis of the deposited data

Results flagged for a closer look

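A single library lay far from the others of its region type for 5 carriers, by Dixon's ratio at its critical value for 6 libraries. Groups with a mean of at least 5 CPM were examined, and 6 of 103 held such a library. Chance flags about 1 in 20 groups if the 6 libraries are independent. They are 2 from each of 3 kidneys, so that rate need not hold here. Slc25a10 stood at 62.9 CPM in replicate 2 of kidney 2 in F4/80-low regions, below the 99.0 to 112 CPM of the other 5 libraries. Slc25a20 stood at 89.4 CPM in replicate 1 of kidney 1 in F4/80-high regions, above the 30.3 to 50.9 CPM of the other 5 libraries. Slc25a21 stood at 31.9 CPM in replicate 1 of kidney 1 in F4/80-high regions, above the 5.72 to 12.3 CPM of the other 5 libraries. Slc25a32 stood at 18.3 CPM in replicate 2 of kidney 2 in non-cystic regions, above the 9.55 to 12.2 CPM of the other 5 libraries. Slc25a36 stood at 106 CPM in replicate 1 of kidney 1 in F4/80-high regions, above the 38.7 to 61.4 CPM of the other 5 libraries. Slc25a36 stood at 37.5 CPM in replicate 2 of kidney 2 in F4/80-low regions, below the 56.6 to 64.8 CPM of the other 5 libraries. The values of the 2 libraries of a kidney were summed before the tests, and 3 of these 6 values came from replicate 1 of kidney 1 in F4/80-high regions. Without that library 33 members were called in F4/80-high against non-cystic regions, and the share over all genes without it is not given here.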

How the results depend on the processing

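Each carrier called in a comparison kept its direction over the 30 alternatives, except that Slc25a43 was not tested in 3 of them. With the kidney, the replicate block of the model, left out, 30, 24 and 1 members were called in F4/80-high against non-cystic, F4/80-high against F4/80-low and F4/80-low against non-cystic regions. In the comparison with F4/80-low regions Slc25a21 then lost its call and Slc25a37 gained one. With total counts 14 members were called in F4/80-high against F4/80-low regions. With 1 kidney or library left out, the members called numbered 18 to 33, 6 to 26 and 0 to 1 in these comparisons, with the lowest number without kidney 1, and in the last comparison also without kidney 2 or without replicate 2 of F4/80-low kidney 2, and all genes called numbered 3359 to 6550, 988 to 4214 and 23 to 578. All genes called in F4/80-low against non-cystic regions numbered 246, against 523 with no minimum, 675 with DESeq2's Wald test, 601 with the 18 libraries and the kidney block and 567 with the replicate block added. For F4/80-high against F4/80-low regions, 2413 genes were called with those region types alone, against 3895. From raw counts, not per kilobase, Slc25a5 took 60.9% of ADP/ATP carriers in F4/80-high, 77.1% in F4/80-low and 82.2% in non-cystic regions, and Slc25a24 took 64.6%, 18.1% and 5.90% of its subgroup in F4/80-high, F4/80-low and non-cystic regions. The causes were not tested. The sign turned in the results that follow, none of them called. Scaling to total counts gave 0.0282 for Slc25a1, 0.0478 for Slc25a13, 0.00656 for Slc25a28, 0.0395 for Slc25a34, 0.0406 for Slc25a38, 0.10 for Slc25a44 and 0.00125 for Slc25a51 in F4/80-low against non-cystic regions. The same gave 0.19 for Slc25a4, 0.14 for Slc25a20, 0.23 for Slc25a32 and 0.14 for Slc25a36 in F4/80-high against non-cystic regions. The same gave 0.23 for Slc25a4, 0.47 for Slc25a14, 0.0254 for Slc25a20, 0.14 for Slc25a29, 0.30 for Slc25a32, 0.10 for Slc25a40 and 0.14 for Slc25a46 in F4/80-high against F4/80-low regions. The fit with no replicate block gave -0.0508 for Slc25a18 and -0.0802 for Slc25a25 in F4/80-low against non-cystic regions. The same gave -0.00335 for Slc25a40 in F4/80-high against non-cystic regions. The same gave 0.0105 for Slc25a14 in F4/80-high against F4/80-low regions. DESeq2 size factors gave -0.0135 for Slc25a20, -0.0191 for Slc25a25 and -0.0126 for Slc25a30 in F4/80-low against non-cystic regions. The same gave 0.00256 for Slc25a14 in F4/80-high against F4/80-low regions. DESeq2's Wald test gave -0.0134 for Slc25a20, -0.0174 for Slc25a25 and -0.0126 for Slc25a30 in F4/80-low against non-cystic regions. The same gave 0.00258 for Slc25a14 in F4/80-high against F4/80-low regions. Fitting the compared region types alone gave -0.0106 for Slc25a20 in F4/80-low against non-cystic regions. The 18 libraries with a kidney block gave -0.0285 for Slc25a25 in F4/80-low against non-cystic regions. The same gave 0.0287 for Slc25a14 in F4/80-high against F4/80-low regions. The 18 libraries with a kidney and replicate block gave -0.0113 for Slc25a25 in F4/80-low against non-cystic regions. The same gave 0.00403 for Slc25a14 in F4/80-high against F4/80-low regions. The stricter minimum gave 0.0260 for Slc25a14 in F4/80-high against F4/80-low regions. With a kidney or library left out, the range in F4/80-low against non-cystic regions was -0.40 to 0.25 for Slc25a1, -0.20 to 0.0237 for Slc25a13, -0.0978 to 0.44 for Slc25a14, -0.44 to 0.65 for Slc25a18, -0.19 to 0.17 for Slc25a20, -0.76 to 0.0556 for Slc25a22 and -0.19 to 0.36 for Slc25a25. With a kidney or library left out, the range in F4/80-low against non-cystic regions was -0.0521 to 0.64 for Slc25a29, -0.10 to 0.17 for Slc25a30, -0.31 to 0.00204 for Slc25a32, -0.0689 to 0.28 for Slc25a33, -0.37 to 0.11 for Slc25a34, -0.30 to 0.11 for Slc25a38 and -0.22 to 0.27 for Slc25a39. With a kidney or library left out, the range in F4/80-low against non-cystic regions was -0.34 to 0.0146 for Slc25a42, -0.17 to 0.79 for Slc25a43 and -0.20 to 0.10 for Slc25a44. With a kidney or library left out, the range in F4/80-high against non-cystic regions was -0.0264 to 0.35 for Slc25a14, -0.30 to 0.40 for Slc25a29 and -0.34 to 0.56 for Slc25a40. With a kidney or library left out, the range in F4/80-high against F4/80-low regions was -0.24 to 0.31 for Slc25a14, -0.0783 to 0.52 for Slc25a27, -0.88 to 0.0465 for Slc25a29, -0.19 to 0.27 for Slc25a36 and -0.0767 to 2.25 for Slc25a47. Members under 1 CPM, such as Slc25a47, rest on few counts.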
